A study of Mus musculus with 6 samples.

Results

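Adipose progenitors are fibroblast-like cells of the connective tissue that can become fat cells, and they are recognised by proteins on their surface. The 10 genes described here encode such surface markers: Pdgfra, Pdgfrb, Ly6a, Cd34, Dpp4, Pi16, Icam1, F3, Thy1 and Eng. They were chosen by name, and all 10 were found among the 17924 genes of the table that the authors deposited. The RNA-seq data come from fibroblasts of the dorsal dermis of newborn mice that were kept for 14 days in adipocyte differentiation medium, with 3 CTL and 3 Nelfb-/- cultures (labelled Nelfb KO). The CTL mice kept at least 1 intact Nelfb allele (fl/wt or wt/wt), the Nelfb-/- mice were Nelfb fl/fl, and mice of both kinds were Pdgfra-Cre+/- and C57BL/6J. The labels do not say which CTL library came from fl/wt and which from wt/wt. Nelfb encodes a subunit of the NELF complex, which holds RNA polymerase II at a pause close to the start of genes. Cre, driven by Pdgfra, was thus present in both groups, and Nelfb could be lost only from cells in which Cre had been made. The cultures were not sorted, so that fewer cells of a type and less RNA per cell cannot be told apart.

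Progenitors are commonly found as cells with PDGFRA, a receptor for platelet-derived growth factors, together with SCA1, the product of Ly6a, and this pair was the gate of the study's flow cytometry on skin. Single-cell work on fat depots divides these cells into interstitial progenitors with DPP4 and PI16, committed preadipocytes with ICAM1, and a population with F3 (CD142) that was described as restraining adipogenesis. CD34, THY1, ENG and PDGFRB mark stromal cells more widely, PDGFRB also marks cells around vessels, and CD34 and ENG are also made by endothelium. During adipogenesis the levels of many of these markers decline as lipid genes rise.

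Expression is in CPM, with each library scaled to a total of 1e+06 and no correction for gene length. The libraries held between 1.72e+07 and 2.94e+07 reads on these genes, and 3 reads, taken as the floor of detection, were worth 0.102 to 0.175 CPM. The 3 values of a group are always given in the order of the replicate numbers. Nelfb itself had 17.3, 19.6 and 22.3 CPM in CTL, against 5.50, 3.90 and 5.55 CPM in Nelfb-/- cells. The groups were apart, and some Nelfb RNA remained. Adipocyte genes were found in every library: the 14 genes of that list summed to 46991, 42585 and 27034 CPM in CTL, against 21718, 32320 and 27557 CPM in Nelfb-/- cells. CTL replicate 3 lay within the Nelfb-/- range of this sum, and the other CTL libraries lay above it. Single genes differed from the sum. For 4 of the 14 (Fabp4, Plin1, Pparg and Retn) every CTL library was above every Nelfb-/- library, beside 16.1% of all genes tested. For 2 (Plin4 and Lep) every CTL library was below, beside 22% of all genes tested. Over all genes tested, the log2 values of CTL replicates 1 and 2 had a Pearson correlation of 0.985 with each other and of 0.942 and 0.940 with CTL replicate 3. In the same way, Nelfb-/- replicates 2 and 3 had a correlation of 0.988 with each other and of 0.930 and 0.945 with Nelfb-/- replicate 1. Fits that left out each of the 6 libraries in turn are therefore given beside the results.

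Of the 10 markers, 9 had a mean of at least 10 reads (0.448 CPM) and were tested with limma over 16251 genes. All 9 had a positive log2 fold change (log2FC, Nelfb-/- relative to CTL), with a median of 0.66, where the median of all genes tested was 0.07 and 54.6% of them were positive. For Cd34 the means ran the other way, with a CTL mean of 6.54 CPM and a Nelfb-/- mean of 3.61 CPM, and its log2FC changed sign with the libraries left out. The limits of the study for a called gene, 0.05 for the adjusted p and 2-fold for the change, were passed by 1 marker, Dpp4. Among all genes tested, 7.58% were called higher by these limits and 3.64% lower, and 9.96% were higher by the adjusted p alone, which again 1 marker passed. At 3 markers, Pdgfra, Dpp4 and F3, the lowest Nelfb-/- library exceeded the highest CTL library, as was the case for 22% of all genes tested (38.1% were apart in either direction). Among the markers, 4 were at least 2-fold higher in the fit, namely Dpp4, Pdgfrb, Thy1 and Ly6a, beside 14.0% of all genes tested. The 95% interval of the log2FC included 0 for 4, namely Ly6a, Cd34, Icam1 and Eng. The other 5 tested markers had an unadjusted limma p under 0.05, as had 5278 of the 16251 genes tested.

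**Figure D1:**
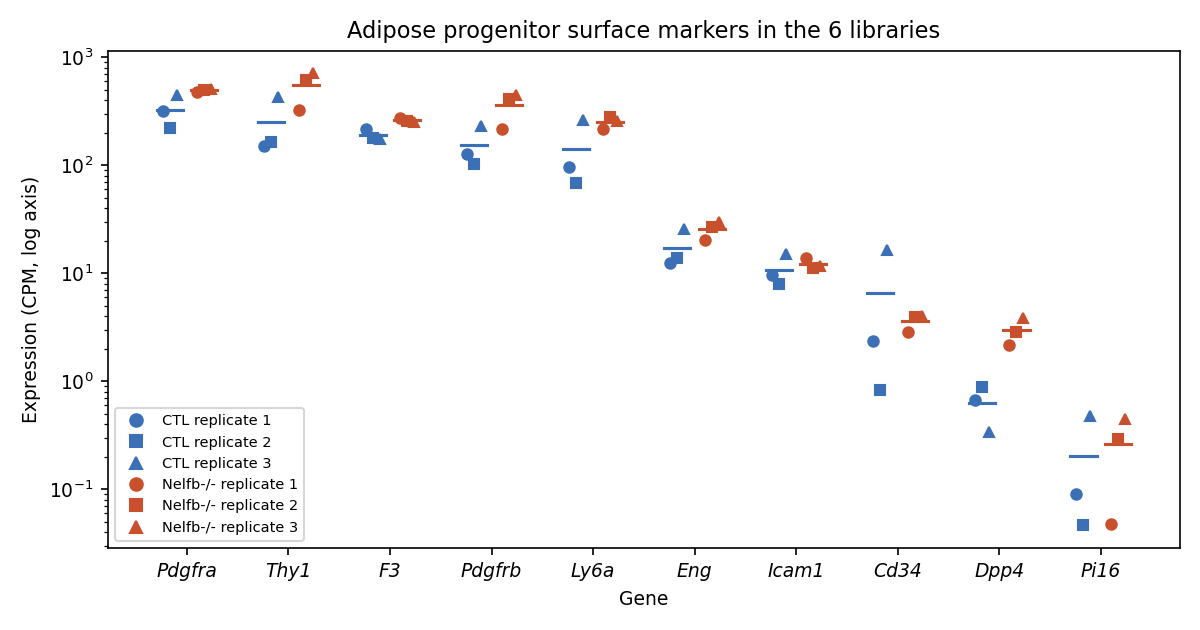
Expression of the 10 surface markers in CPM (log axis) for each library, with CTL in blue, Nelfb-/- in red-orange, one symbol per replicate number and a line at the mean of each group. The Nelfb-/- libraries lie above all CTL libraries for Pdgfra, F3 and Dpp4, and the triangle of CTL replicate 3 lies above the other CTL libraries for 8 of the 10 genes.

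DPP4 is a membrane peptidase that removes short ends from chemokines and hormones, and it marks the interstitial progenitors. Dpp4 (ENSMUSG00000035000, chr2:62330073-62412231 on GRCm38) was measured at 0.676, 0.887 and 0.340 CPM in CTL, against 2.18, 2.85 and 3.84 CPM in Nelfb-/- cells. The groups were clearly apart, and the library with the least Dpp4 was CTL replicate 3. These levels were low, at 10 to 19 reads in a CTL library and 46 to 93.9 reads in a Nelfb-/- library. Dpp4 rose from 0.634 ± 0.276 CPM (SD, n = 3) to 2.96 ± 0.832 CPM, which on the log2 scale was a change of 2.20 (SE 0.44, 95% interval 1.16 to 3.24) with a limma adjusted p of 0.021. The call was lost without CTL replicate 1 (limma adjusted p = 0.068), without Nelfb-/- replicate 2 (limma adjusted p = 0.074) and without Nelfb-/- replicate 3 (limma adjusted p = 0.103), although the log2 value stayed between 1.84 and 2.47 over all 6 fits that left out 1 library. It was also lost when the variance of each gene was taken on its own (adjusted p = 0.067, linear model). Adding 0.5 CPM in place of 1 read before the logarithm kept the call and lowered the log2 value to 1.61 (limma adjusted p = 0.016).

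PI16 is a secreted or membrane-bound protein of the CAP family that is used with DPP4 to mark interstitial progenitors. Pi16 (ENSMUSG00000024011, chr17:29317680-29330593) had 0.0902, 0.0467 and 0.476 CPM in CTL, against 0.0474, 0.291 and 0.449 CPM in Nelfb-/- cells. The groups overlapped, the highest library was CTL replicate 3, and 3 of the 6 libraries held at most 2 reads. Its mean over all libraries was 0.233 CPM, under the limit for testing, and a change of Pi16 was not detectable at this depth. Without a filter on low genes its log2FC was 0.42 (limma adjusted p = 0.80).

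ICAM1, an adhesion protein that leukocytes bind through their integrins, marks committed preadipocytes. Icam1 (ENSMUSG00000037405, chr9:21015985-21028817) had 9.55, 7.92 and 15.03 CPM in CTL, against 13.7, 11.1 and 11.8 CPM in Nelfb-/- cells. CTL replicate 3 was above all Nelfb-/- libraries, and the other CTL libraries were below all of them. The difference of 0.22 on the log2 scale (SE 0.27, limma adjusted p = 0.61) had a 95% interval from -0.42 to 0.86, which leaves out a 2-fold change in either direction. In the fit that left out CTL replicate 3 it was 0.48 (limma adjusted p = 0.12). The fit that left out CTL replicate 2 gave 0.02 (limma adjusted p = 0.98). Without CTL replicate 1 and without Nelfb-/- replicate 1 it was 0.15 and 0.13. An antisense gene, Gm47079, shares 511 bases or 11.7% of the exon sequence of Icam1, and without strand the reads of these genes cannot be told apart there. Antisense or neighbouring genes on the other strand share at most 4.55% of exon sequence with any other marker.

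F3 encodes tissue factor, the receptor that starts blood clotting by binding factor VII. F3 (ENSMUSG00000028128, chr3:121723537-121735048) had 217, 180 and 176 CPM in CTL, against 274, 256 and 248 CPM in Nelfb-/- cells. The Nelfb-/- libraries were above all CTL libraries, and the spread within each group was narrow. F3 was 0.45 higher on the log2 scale (SE 0.14, limma adjusted p = 0.084), with a 95% interval from 0.10 to 0.79, so that a 2-fold change lay outside it. The 6 fits that left out 1 library gave 0.39 to 0.54.

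The 3 genes for which these progenitor populations are named, Dpp4, Icam1 and F3, have different sequences upstream of their starts, and these are shown because promoters are where NELF acts. The 120 bases before the RefSeq start on GRCm38.p6 are printed in the direction of the gene, with GC boxes (GGGCGG on either strand) in capitals. They lie at chr2:62412232-62412351 on the minus strand for Dpp4, at chr9:21015820-21015939 on the plus strand for Icam1 and at chr3:121723417-121723536 on the plus strand for F3. The start that RefSeq gives for Icam1 lies upstream of that in the authors' table.
Dpp4: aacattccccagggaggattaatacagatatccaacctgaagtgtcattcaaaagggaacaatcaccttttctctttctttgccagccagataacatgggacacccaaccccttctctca
Icam1: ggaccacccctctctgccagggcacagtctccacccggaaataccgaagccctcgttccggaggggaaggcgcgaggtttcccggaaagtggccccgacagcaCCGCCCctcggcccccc
F3: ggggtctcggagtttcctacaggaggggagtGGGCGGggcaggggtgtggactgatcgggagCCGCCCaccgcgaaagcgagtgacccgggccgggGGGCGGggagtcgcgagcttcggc
The window of Dpp4 held 44.2% G and C, that of Icam1 70.0% and that of F3 73.3%, beside a median of 54.2% for the 32851 promoters of the same length. A GC box stood in the windows of Icam1 and F3 and not in that of Dpp4, and 26.5% of all promoters held one. Neither the TATA box (TATAAA, in 6.34% of all promoters) nor the CCAAT box (CCAAT, in 21.3%) was found in these 3 windows on either strand. These matches describe the letters only. Binding at these promoters was not measured in the data used here.

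PDGFRA and PDGFRB are the receptor tyrosine kinases for platelet-derived growth factors. Pdgfra (ENSMUSG00000029231, chr5:75152292-75198215) had 317, 219 and 444 CPM in CTL, against 476, 499 and 509 CPM in Nelfb-/- cells. Every Nelfb-/- library was above every CTL library, with CTL replicate 3 close below them. Pdgfra was 0.66 higher on the log2 scale (SE 0.27, limma adjusted p = 0.15). Leaving out CTL replicate 3 gave 0.91 (limma adjusted p = 0.030), still under 2-fold, and leaving out CTL replicate 2 gave 0.40 (limma adjusted p = 0.36). Pdgfrb (ENSMUSG00000024620, chr18:61045150-61085061) had 127, 102 and 231 CPM in CTL, against 218, 410 and 444 CPM in Nelfb-/- cells. The groups overlapped only because CTL replicate 3 was above Nelfb-/- replicate 1. On the log2 scale Pdgfrb was 1.25 higher (SE 0.39, limma adjusted p = 0.079), and the gene passed without CTL replicate 3 (1.59, limma adjusted p = 0.029) and without Nelfb-/- replicate 1 (1.57, limma adjusted p = 0.039). The other fits that left out 1 library gave 0.996 to 1.16, with no call.

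SCA1, encoded by Ly6a, and THY1 are small proteins held to the membrane by a lipid anchor. Ly6a (ENSMUSG00000075602, chr15:74994877-74998031) had 96.0, 68.4 and 262 CPM in CTL, against 216, 277 and 257 CPM in Nelfb-/- cells. CTL replicate 3 lay among the Nelfb-/- libraries, and CTL replicates 1 and 2 lay well below them. Its difference was 1.05 on the log2 scale (SE 0.47, limma adjusted p = 0.18), and Ly6a passed without CTL replicate 3 (1.62, limma adjusted p = 0.0083). The fit that left out CTL replicate 2 gave 0.65 (limma adjusted p = 0.43). Ly6a has close copies, and 19.0% of the 50-base stretches of its transcripts also occur in those of Ly6c1, Ly6i or I830127L07Rik, so that part of its reads is uncertain. Ly6c1 had 22.4 to 60.1 CPM over the libraries and Ly6i at most 0.699 CPM. For each of the other markers at most 2.27% of such stretches were shared.

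Thy1 (ENSMUSG00000032011, chr9:44043384-44048579) had 151, 164 and 432 CPM in CTL, against 321, 614 and 707 CPM in Nelfb-/- cells. As with Pdgfrb, CTL replicate 3 was above Nelfb-/- replicate 1 and below the other Nelfb-/- libraries. The difference for Thy1 was 1.23 on the log2 scale (SE 0.48, limma adjusted p = 0.13), and it passed without CTL replicate 3 (1.72, limma adjusted p = 0.027). The lowest value was 0.96, without CTL replicate 1 (limma adjusted p = 0.34).

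ENG, or endoglin, is a co-receptor for ligands of the TGF-beta family, and CD34 is a heavily glycosylated membrane protein of progenitors and endothelium. Eng (ENSMUSG00000026814, chr2:32646595-32682669) had 12.4, 13.8 and 25.4 CPM in CTL, against 20.5, 26.7 and 30.0 CPM in Nelfb-/- cells. CTL replicate 3 lay among the Nelfb-/- libraries, and the other CTL libraries lay below them. Eng was 0.64 higher on the log2 scale (SE 0.31, limma adjusted p = 0.21). Leaving out CTL replicate 3 gave 0.96 (limma adjusted p = 0.029), just under 2-fold, and leaving out CTL replicate 1 gave 0.44 (limma adjusted p = 0.48). Cd34 (ENSMUSG00000016494, chr1:194938819-194961279) had 2.35, 0.840 and 16.4 CPM in CTL, against 2.89, 3.90 and 4.04 CPM in Nelfb-/- cells. A single library, CTL replicate 3, thus held the highest value, 10.3 times the mean of CTL replicates 1 and 2. For Cd34 the log2FC was 0.15 (SE 0.99, limma adjusted p = 0.94). It was -0.79 without CTL replicate 2, -0.08 without CTL replicate 1 and 1.31 without CTL replicate 3 (limma adjusted p = 0.62, 0.98 and 0.11), so that the 3 CTL libraries did not fix its direction.

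**Figure D2:**
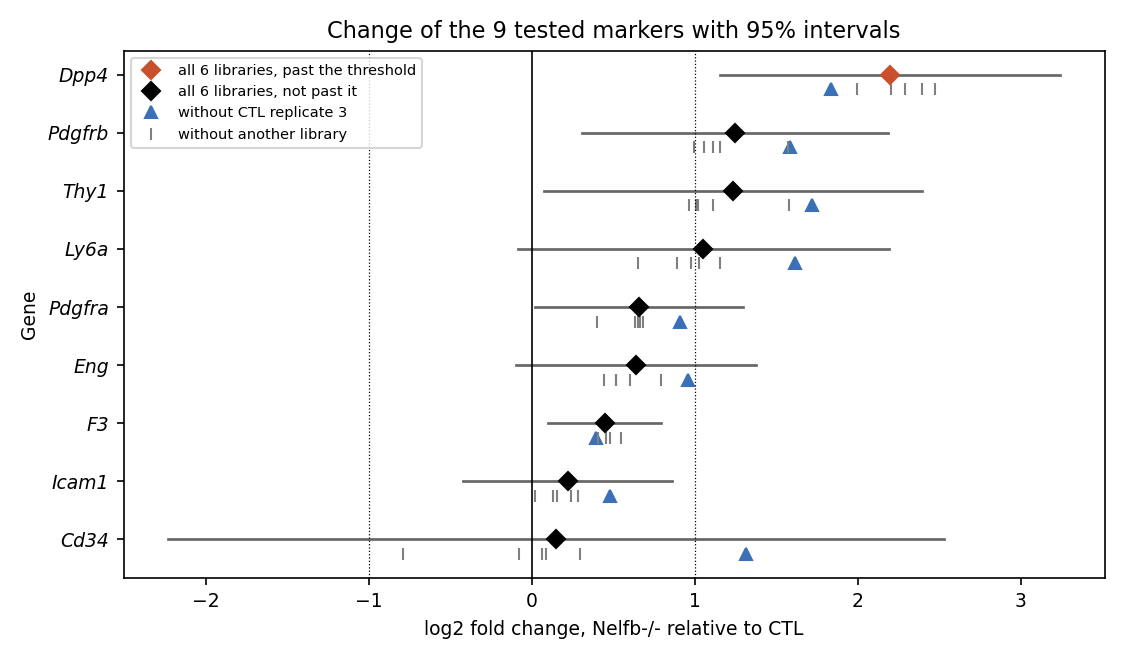
Log2FC of the 9 tested markers in Nelfb-/- cells relative to CTL (diamonds) with 95% intervals from limma, and just below each the values when 1 library was left out, with the fit without CTL replicate 3 as a blue triangle; dotted lines mark 2-fold. With all libraries 4 genes lie past the 2-fold line, and of these Dpp4 (red-orange) also had an adjusted p under 0.05, and the fit without CTL replicate 3 gives the highest value for 7 of the 9 genes, the exceptions being Dpp4 and F3.

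CTL replicate 3 was the highest CTL library for 8 of the 10 markers, the exceptions being Dpp4 and F3, while it was the highest for 47.9% of all genes tested. Its value lay within the Nelfb-/- range for 4 markers (Pdgfrb, Ly6a, Thy1 and Eng) and above all Nelfb-/- libraries for 3 (Cd34, Pi16 and Icam1). At 9 of the 10 markers, all but Pi16, every Nelfb-/- library was above CTL replicates 1 and 2, which was so for 34.4% of the 16324 genes tested without CTL replicate 3. In that fit 4 markers were called higher (Pdgfrb, Ly6a, Dpp4 and Thy1), beside 10.4% of all genes, and the median log2FC of the 9 markers was 1.31. Nelfb-/- replicate 1 held the lowest value of its group for 8 markers, the exceptions being Icam1 and F3, and for 45.0% of all genes tested. What set CTL replicate 3 apart was not tested.

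Levels of different genes were compared per kilobase of exon (CPM per kb). By the mean of the 3 CTL libraries the order ran from Ly6a at 118 ± 87.0 CPM per kb (SD, n = 3) through Thy1 at 83.2 ± 52.8, F3 at 75.5 ± 9.09, Pdgfra at 32.6 ± 11.3 and Pdgfrb at 27.9 ± 12.5 CPM per kb to the lower markers. Eng followed at 4.25 ± 1.77, Icam1 at 2.49 ± 0.854, Cd34 at 0.897 ± 1.18, Dpp4 at 0.10 ± 0.0436 and Pi16 at 0.0321 ± 0.0371 CPM per kb. The top of this order rested on CTL replicate 3, where Ly6a had 218, Thy1 144 and F3 69.6 CPM per kb. F3 was the highest marker in CTL replicate 1, at 86.0 CPM per kb beside 79.7 for Ly6a and 50.6 for Thy1, and in CTL replicate 2, at 71.0 beside 56.8 and 54.9 CPM per kb. Among neighbours in this order the ranges of the CTL libraries were apart only between F3 and Pdgfra and between Pdgfrb and Eng. By the means of the Nelfb-/- libraries Ly6a, at 208 ± 25.7 CPM per kb, and Thy1, at 183 ± 67.2, stood before F3 at 103 ± 5.14 CPM per kb. Pdgfrb, at 65.3 ± 22.3 CPM per kb, stood before Pdgfra at 49.4 ± 1.69 CPM per kb, and the ranges of these 2 genes overlapped. The ranges of the Nelfb-/- libraries were apart between F3 and Pdgfrb, Pdgfra and Eng, Eng and Icam1, Icam1 and Cd34, and Dpp4 and Pi16. Dpp4, the marker that passed, remained by its mean the second lowest of the 10 per kb in Nelfb-/- cells, at 0.468 ± 0.132 CPM per kb. Its range overlapped that of Cd34, and in Nelfb-/- replicate 3 Dpp4 was the higher of these (0.607 beside 0.554 CPM per kb).

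Ratios of 2 markers within a library depend little on how libraries were scaled, and 5 were compared on the log2 scale, with 1 read added to each gene. The exact two-sided permutation test used for them can reach 0.1 at the lowest, as each group had 3 libraries. The ratio of Dpp4 to Icam1, that is of the interstitial to the committed marker, was -3.73, -3.10 and -5.29 in CTL, against -2.63, -1.94 and -1.61 in Nelfb-/- cells. The groups did not overlap, and the difference was 1.98 (exact permutation p = 0.1, 0.5 after adjustment over the 5 ratios). For Pdgfra to Pdgfrb the ratio was 1.13 ± 0.189 (SD, n = 3) in CTL and 0.535 ± 0.513 in Nelfb-/- cells, with Nelfb-/- replicate 1 within the CTL range (exact permutation p = 0.3). For Pi16 to Dpp4 the difference was -1.78 (exact permutation p = 0.3), with CTL replicate 3 above all other libraries. Without that library the difference was -0.68 (exact permutation p = 0.6), and Pi16 had at most 2 reads in 3 of the 6 libraries. Ly6a to Pdgfra, the pair of the flow cytometry gate, was -1.72, -1.68 and -0.76 in CTL, against -1.14, -0.85 and -0.98 in Nelfb-/- cells, a difference of 0.40 (exact permutation p = 0.4). Without CTL replicate 3 this difference was 0.71 (exact permutation p = 0.1), and without CTL replicate 1 it was 0.23 (exact permutation p = 0.7). F3 to Icam1 had a difference of 0.23 (exact permutation p = 0.8), which was -0.089 without CTL replicate 3.

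**Figure D3:**
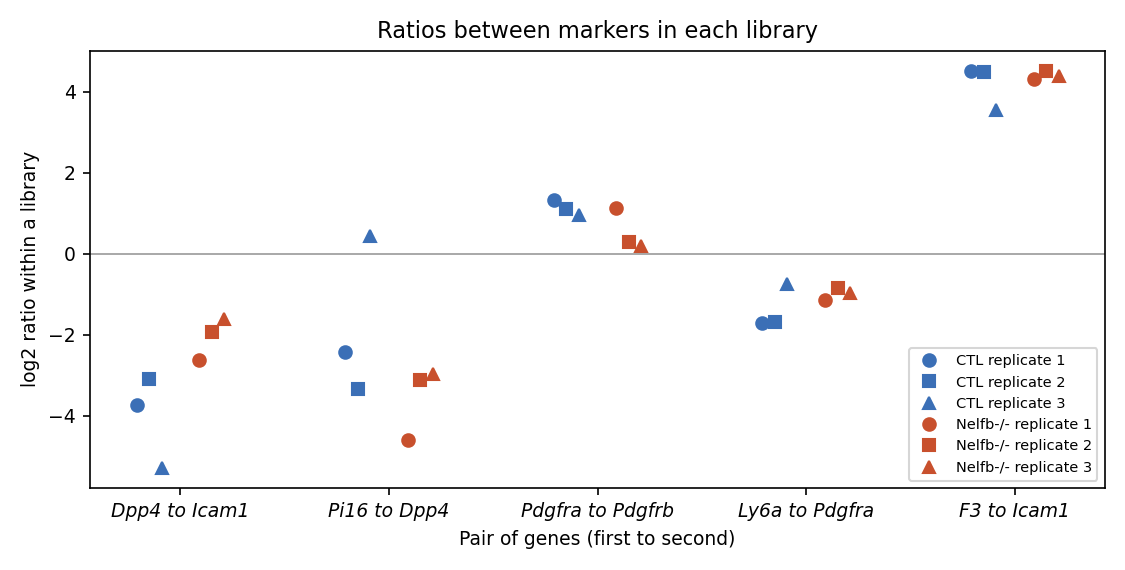
Log2 ratio of 2 markers in each library for 5 pairs, with CTL in blue and Nelfb-/- in red-orange and one symbol per replicate number. The groups are apart only for Dpp4 to Icam1, where CTL replicate 3 is the lowest library, and CTL replicate 3 also lies away from the other CTL libraries for Pi16 to Dpp4, Ly6a to Pdgfra and F3 to Icam1.

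Other genes that go with the 3 progenitor populations were described from lists written from general knowledge. Their counts stand beside the 7.58% and 3.64% of all genes that were called higher and lower and the 54.6% that were positive. Leaving out 1 library moved these shares to between 1.79% (without Nelfb-/- replicate 3) and 10.4% (without CTL replicate 3) higher and between 0.839% and 4.75% lower. The list for DPP4+ interstitial progenitors had 11 tested genes with a median log2FC of 1.41, of which 10 were positive, 5 were called higher and 0 lower. Among the 5, Cd55, which protects cells from complement, rose from a CTL mean of 9.52 ± 1.71 CPM (SD, n = 3) to 35.3 ± 6.59 CPM with Nelfb deleted (log2FC 1.88, SE 0.21, limma adjusted p = 0.0055). Efhd1, a calcium-binding protein, had 0.135, 0.140 and 0.306 CPM in CTL, against 1.09, 1.63 and 1.10 CPM in Nelfb-/- cells (limma adjusted p = 0.016). Opcml, an adhesion protein, had 0.0902, 0.0467 and 0.238 CPM in CTL, with 2 libraries under the floor, against 0.853, 0.990 and 1.55 CPM in Nelfb-/- cells (limma adjusted p = 0.020). Both genes reached the limit for testing only through the Nelfb-/- libraries. Limch1 and Fn1, which were the other genes called and are named here after their values were seen, rose by 1.35 and 1.41 on the log2 scale. The list for ICAM1+ committed preadipocytes had 13 tested genes with a median of -0.02 (-0.52 to 0.09 with 1 library left out), of which 2 were called higher (Dlk1 and Cxcl14) and 1 lower (Sparcl1). Sparcl1, a matrix-associated protein, fell from 135 ± 22.5 CPM to 29.7 ± 3.74 CPM, a log2FC of -2.18 (SE 0.17, limma adjusted p = 0.0033). Dlk1, a membrane protein that restrains adipogenesis, rose by a log2FC of 3.37 (limma adjusted p = 0.017). Cxcl14, a chemokine, had 0.0902, 0.607 and 3.57 CPM in CTL, against 9.82, 55.4 and 49.4 CPM in Nelfb-/- cells (limma adjusted p = 0.033). The list for F3+ cells, also called Aregs, had 10 tested genes with a median of 0.47, with 5 positive, 5 negative and 2 called higher. These were Aldh1a2, an enzyme that makes retinoic acid, and Igfbp3, a binding protein of insulin-like growth factors (log2FC 1.11, limma adjusted p = 0.037). Aldh1a2 had 0.0902, 0.420 and 0.136 CPM in CTL, against 1.85, 4.07 and 1.92 CPM in Nelfb-/- cells (limma adjusted p = 0.014), and it too reached the limit for testing only through the Nelfb-/- libraries.

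Most of these calls depended on single libraries. Over the 6 fits that left out 1 library, the DPP4+ list had 1 to 7 genes called higher and 0 lower. The ICAM1+ list had 0 to 2 higher and 1 to 2 lower, and the F3+ list 0 to 2 higher and 0 to 2 lower. Cd55 and Sparcl1 were called in all 6 of these fits. Aldh1a2 was called in 3, Efhd1, Opcml, Limch1, Fn1, Dlk1 and Cxcl14 were each called in 2 (without CTL replicate 3 and without Nelfb-/- replicate 1), and Igfbp3 in 0 of the limma fits. Without Nelfb-/- replicate 1 the F3+ list had Aldh1a2 called higher and Abcg1 and Fmo2, named after their values were seen, called lower.

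Of the 4 PDGF ligands, 2 were called higher. Pdgfc rose from 14.2, 11.4 and 26.5 CPM in CTL to 36.8, 35.3 and 38.2 CPM in Nelfb-/- cells, a log2FC of 1.17 (limma adjusted p = 0.048). Pdgfb was never over the floor of 3 reads in CTL (0.135, 0 and 0.102 CPM), and it had 2.32, 3.96 and 4.81 CPM in Nelfb-/- cells (limma adjusted p = 0.0066). Pdgfa had a log2FC of 0.88 (limma adjusted p = 0.025), under 2-fold, and Pdgfd one of -0.06 (limma adjusted p = 0.86). Pdgfb was called in all 6 fits that left out 1 library, and Pdgfc in 1 of them, that without CTL replicate 3. Pdgfb reached the limit for testing only through the Nelfb-/- libraries.

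Among the binding partners and co-receptors of the markers, 16 genes were tested, 4 were called higher and 0 lower, with a median log2FC of 0.90. Tgfbr1, the type I receptor of TGF-beta, rose from 46.3 ± 2.40 CPM to 115 ± 24.8 CPM (SD, n = 3), a log2FC of 1.29 (SE 0.18, limma adjusted p = 0.0081). Itgal and Itgam encode chains of the leukocyte integrins that bind ICAM1, and Itgam, named after its values were seen, is also on the leukocyte list. Itgal had 0.541, 0.0933 and 0.612 CPM in CTL, against 12.5, 8.61 and 15.9 CPM in Nelfb-/- cells (limma adjusted p = 0.0072), and reached the limit for testing only through the latter. Itgam rose by 2.48 on the log2 scale (limma adjusted p = 0.042). Ada, an enzyme of purine breakdown whose human protein binds DPP4, rose by 2.74 on the log2 scale (limma adjusted p = 0.036). Of the partners of tissue factor, F7, its ligand, had a log2FC of 1.12 (limma adjusted p = 0.10) and Tfpi, its inhibitor, one of -0.22 (limma adjusted p = 0.58). In the same list Tfpi2 had 2.73 (limma adjusted p = 0.064) and F2r 0.83 (limma adjusted p = 0.058). Tfpi2 was called higher without CTL replicate 3 and without Nelfb-/- replicate 1, and F2r without CTL replicate 3. F7, Tfpi, Tfpi2 and F2r were named after their values were seen. Among 18 tested relatives of the markers, 3 were called higher and 0 lower, with a median of 0.64. These were Fap, a peptidase of fibroblasts related to DPP4 (log2FC 2.51, SE 0.25, limma adjusted p = 0.0042), Csf1r, a receptor of macrophages that is also on the leukocyte list (3.08, limma adjusted p = 0.0058) and Vcam1, an adhesion protein (1.88, limma adjusted p = 0.046). Fap had 2.21, 1.87 and 3.09 CPM in CTL, against 11.7, 14.6 and 14.6 CPM in Nelfb-/- cells, and the groups were well apart. With 1 library left out, 2 to 7 partners and 2 to 6 relatives were called higher and 0 lower. Tgfbr1, Itgal, Fap and Csf1r were called in all 6 of these fits, Ada and Itgam in 2 and Vcam1 in 1.

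Of 28 other surface markers of stromal cells, 6 were called higher and 1 lower, with a median log2FC of 0.94. Besides Cd55, those with the smallest adjusted p were Ngfr, the low-affinity receptor of nerve growth factor (2.74, SE 0.32, limma adjusted p = 0.0057), and Cd24a (1.60, SE 0.20, limma adjusted p = 0.0064). The remaining 3 called higher, Lepr, Vcam1 and Cdh2, and the 1 called lower, Nt5e, are named after their values were seen. Nt5e encodes CD73, a common marker of stromal cells in culture, and had 100, 112 and 242 CPM in CTL, against 7.21, 29.5 and 28.7 CPM in Nelfb-/- cells (log2FC -2.92, SE 0.62, limma adjusted p = 0.026). CTL replicate 3 stood on the side of CTL for this gene and was the highest of all libraries. With 1 library left out, 3 to 10 of these markers were called higher and 0 to 1 lower. Cd55, Ngfr and Cd24a were called in all 6 of these fits, Lepr in 3, Cdh2 and Nt5e in 2 and Vcam1 in 1.

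**Figure D4:**
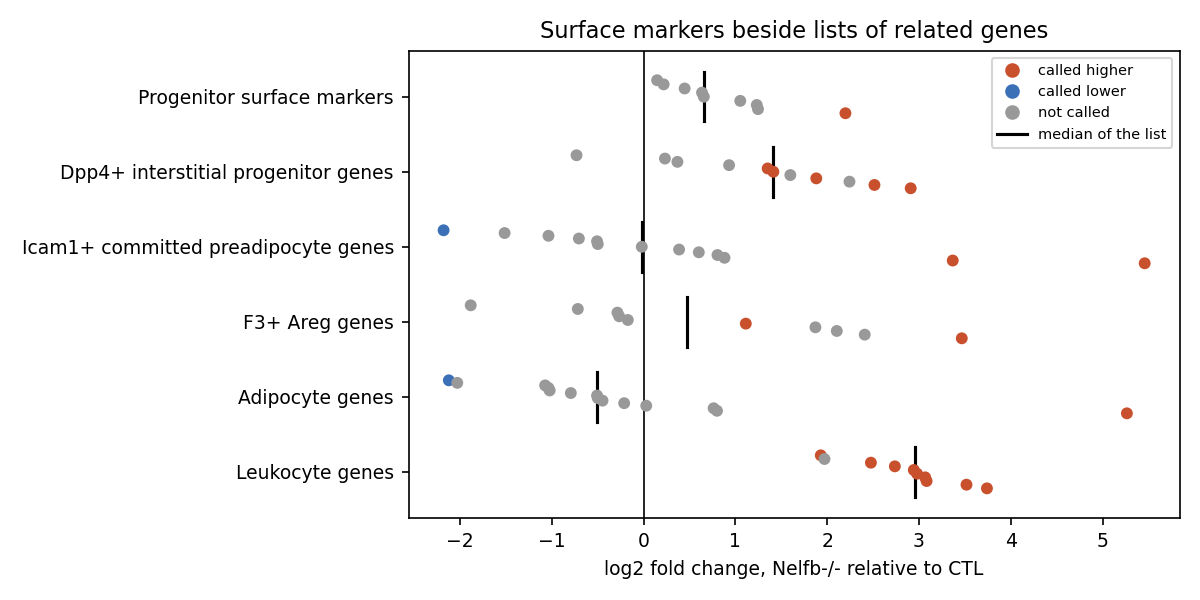
Log2 fold change in Nelfb-/- cells relative to CTL of each tested gene in 6 lists, with genes called higher in red-orange, genes called lower in blue and the median of each list as a black line. The medians are 0.66 for the surface markers, 1.41 for interstitial progenitor genes, -0.02 for committed preadipocyte genes, 0.47 for Areg genes, -0.50 for adipocyte genes and 2.96 for leukocyte genes.

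Several markers are not particular to progenitors, and markers of other cells moved between the groups. Of the 14 adipocyte genes, 1 was called higher (Lep) and 1 lower (Retn), with a median log2FC of -0.50. With 1 library left out, 0 to 1 were called higher and 0 to 4 lower, and the median lay between -0.77 (without CTL replicate 3) and -0.36. The 10 leukocyte markers found in the table summed to 170 to 664 CPM in CTL and 1677 to 5254 CPM in Nelfb-/- libraries, and 9 of them were called higher (1 to 8 with 1 library left out). Of the 9, Aif1 (CTL mean 0.111 CPM) reached the limit for testing only through the Nelfb-/- libraries. Within the Nelfb-/- group the leukocyte sum was highest in replicate 1, at 5254 CPM, where 8 of the 10 surface markers were lowest. The endothelial sum was 8.96 to 12.8 CPM in CTL and 10.2 to 26.5 CPM in Nelfb-/- libraries. Of 8 genes tested, 1 was called higher, Emcn (CTL mean 0.106 CPM), which reached the limit for testing only through the Nelfb-/- libraries. CTL replicate 3, the library with the most Cd34, had a sum of 9.55 CPM. It was the highest CTL library for 3 of the 8, Pecam1, Cdh5 and Erg, and the lowest for Kdr, Tek and Emcn. Apart from Emcn, these genes are named after their values were seen. Erg had 0.0451, 0.0933 and 1.16 CPM in CTL, and Kdr had 4.87, 3.92 and 1.77 CPM. With 1 library left out, 0 to 2 endothelial genes were called higher by limma. The sum for pericytes and smooth muscle was 713 to 1058 CPM in CTL and 502 to 1256 CPM in Nelfb-/- libraries, with 0 of 9 tested genes called by limma, and 0 to 2 called higher with 1 library left out (Cspg4 and Notch3 without CTL replicate 3, Mcam and Rgs5 without Nelfb-/- replicate 1). The keratinocyte sum was 4.19 to 5.51 CPM in CTL and 9.96 to 23.9 CPM in Nelfb-/- libraries, with 2 of 6 tested genes called higher (0 to 3 with 1 library left out). Of the 2, Krt14 (CTL mean 0.205 CPM) reached the limit for testing only through the Nelfb-/- libraries. Genes of Schwann cells and melanocytes summed to 70.0 to 92.5 CPM in CTL and 155 to 253 CPM in Nelfb-/- libraries, with 7 of 9 called higher. Those of skeletal muscle summed to 7.26 to 8.16 and 43.4 to 93.6 CPM, with 5 of 5 called higher. Among the genes called in these lists, Dct, Mlana, Tyr, Tyrp1 and Myog reached the limit for testing only through the Nelfb-/- libraries. With 1 library left out, 5 to 7 and 3 to 5 genes of these lists were called higher, and 1 gene of the first list (Mitf) was called lower without Nelfb-/- replicate 1. The part of these cells in the marker values was not tested.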

How the data were processed

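RNA-seq libraries of 3 CTL and 3 Nelfb-/- cultures, which the study calls biological replicates, were compared at day 14. The values deposited by the authors are CPM with an offset of 0.0001 added, since each column summed to 1e+06 once it was subtracted. The submitters' processing notes name STAR 2.7, Partek 9.0.20.0202 and mm10. The counting and its use of strand are not given in the sources used here. Low values were multiples of a step worth 1 read, which gave the depth. Only 72.6% to 75.1% of values up to 20 reads were whole within 0.05 reads, so no count-based test was run. The offset was subtracted and the CPM were multiplied by a common depth of 2.23e+07 reads. Of the genes, those whose mean reached 10 reads entered limma (version 3.58.1 in R 4.3.3) as log2(value + 1). The variances were moderated toward a trend on abundance. Adjusted p-values are those of Benjamini-Hochberg over all genes tested. Fold changes on this scale understate the change of low genes. In simulated libraries (16251 genes), 75 of 100 genes changed by 3 and 39 of 100 changed by 1.5 on the log2 scale were called, with 4 unchanged genes. These counts were not split by level of expression. Whether they hold for low genes such as Dpp4, or where libraries stand apart as CTL replicate 3 did, was not tested. The markers, lists and tests were chosen with earlier results of these data known. From each list, up to 3 called genes with the smallest adjusted p were to be named. Exon lengths and shared 50-base stretches come from GENCODE vM21 (GRCm38), which gave the same ends for 99.0% of the 17520 genes matched once by name. Promoters come from RefSeq and were matched by symbol. They were kept for 7 markers, and any entry on chromosome 18, where Pdgfrb lies, was left out. The labels give no source animal for a replicate number, and p-values measure the spread between these libraries.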

Additional observations from a re-analysis of the deposited data

How the results depend on the processing

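The number of surface markers called higher was 1, Dpp4, under both other scalings, both other filters and a pseudocount of 0.5 CPM, 0 without moderation of the variances and between 0 (without CTL replicate 1, Nelfb-/- replicate 2 or Nelfb-/- replicate 3) and 4 (without CTL replicate 3) when 1 library was left out. It was 2 without Nelfb-/- replicate 1, where 1248 of all genes were called higher. No marker was called lower in any of these fits (0). Over all genes, 1232 were called higher and 592 lower. Without moderation 438 and 246 were. Leaving out 1 library gave 290 (without Nelfb-/- replicate 3) to 1704 (without CTL replicate 3) higher and 136 to 776 lower, with 629, 536 and 625 higher without CTL replicate 1, CTL replicate 2 and Nelfb-/- replicate 2. Weights for each library, an alternative chosen after seeing the data, gave 5 markers (Pdgfrb, Ly6a, Dpp4, Thy1 and Eng) and 2839 genes higher and 1479 lower. CTL replicate 3 and Nelfb-/- replicate 1 then had weights of 0.192 and 0.202 and the other libraries at least 1.54. The direction turned for Cd34 without CTL replicate 1 (-0.08) and without CTL replicate 2 (-0.79), its highest value being 1.31 (without CTL replicate 3), and for the ratio of F3 to Icam1 without CTL replicate 3 (-0.089). The cause was not tested. Leaving out 1 library, the difference in log2 ratio lay between 1.35 and 2.45 for Dpp4 to Icam1, -2.57 and -0.68 for Pi16 to Dpp4, -0.89 and -0.42 for Pdgfra to Pdgfrb, 0.23 and 0.71 for Ly6a to Pdgfra and -0.089 and 0.39 for F3 to Icam1. With a pseudocount of 0.5 CPM the difference for Dpp4 to Icam1 was 1.40. Samples that share a number deviated together for numbers 1 and 3 (correlation 0.52 and 0.52) but not for number 2 (-0.39), so the numbers were not taken as a pairing. With the replicate number as a block, 3 markers were called higher (Pdgfrb, Dpp4 and Thy1), beside 1505 of all genes higher and 670 lower. With at most 2 reads in 3 libraries, Pi16 is limited by depth.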
